A study of Mus musculus with 21 samples.

Results

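Gene expression was compared between the CD4+ and the CD8+ T cells of the same mice raised in an enriched environment (EE). The comparison held 12 of the 21 samples of the spleen series, 6 CD4+ and 6 CD8+, chosen by the housing, the population and the animal number in their labels. Each mouse gave 1 sample of either population. All 6 were C57BL6/J females. They lived from 4 weeks of age and for 4 weeks in a large cage of 12 to 15 mice with running wheels, toys and tunnels. Per the labels, the animals of an experiment that shared a housing came from a single cage, so that the cage was common to all 12 samples. The spleen was dissociated, red cells were lysed, and CD45+ CD11b- CD3+ cells were sorted into CD4+ and CD8+ cells. Mice in standard housing were not used here.

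T cells leave the thymus as either of a pair of lineages. CD4+ cells read peptides on MHC class II, help B cells and other immune cells through surface ligands and cytokines, and include the regulatory T cells. CD8+ cells read peptides on MHC class I and can kill the cells that show them. The CD4 protein and the CD8 alpha-beta pair are coreceptors that bind these MHC molecules, and the transcription factors ThPOK (Zbtb7b) and RUNX3 are known for setting and keeping the choice.

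Each value was a normalized count, that is the number of molecules of a gene, told apart by a unique molecular identifier (UMI), divided by a size factor that evens out sequencing depth. The CD4+ samples held 145546 to 183941 molecules and the CD8+ samples 179696 to 221454. Between 9302 and 10120 genes were detected per sample. At this depth 1 molecule is worth about 1 normalized count, and values of up to 3 molecules carry a large counting error.

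The labels were checked first against the coreceptor genes, which the sort used as proteins. Cd4 had 53.5, 56.4 and 85.8 normalized counts (lowest, median and highest) in the CD4+ samples. In the CD8+ samples it was at 0 in 5 of 6, and 1 molecule (0.966 normalized counts) was counted in mouse 2. Cd8a had 0, 0 and 1.84 in the CD4+ samples against 72.5, 99.3 and 116.8 in the CD8+ samples. Cd8b1, which encodes the beta chain of CD8, had 1.26, 2.50 and 3.66 against 176.9, 205.7 and 242.8. No sample lay between the populations for any of the 3 genes. Within a mouse, the CD4+ minus the CD8+ value of Cd4 averaged 63.4 ± 13.2 normalized counts, that of Cd8a -98.2 ± 15.6 and that of Cd8b1 -203.8 ± 23.8 (mean ± SD, n = 6 mice). The exact two-sided sign-flip test gave p = 0.03125 for each, the smallest p that 6 pairs allow. The ratio of means was 395 for Cd4, with a counting interval of 70.4 to 15625, since it rests on 1 molecule in the CD8+ samples. It was 215 for Cd8a (interval 73.1 to 1043, on 3 molecules in the CD4+ samples) and 81.1 for Cd8b1.

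Cd4 lies on the minus strand of chromosome 6 (GRCm38, chr6:124864692-124888221). Cd8b1 (chr6:71322788-71337494) and Cd8a (chr6:71373427-71379173) lie 50.6 kb apart from start to start on the plus strand of the same chromosome. All were annotated as protein coding in GENCODE M21, as was every gene with a coordinate here unless its kind is given.

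**Figure D1:**
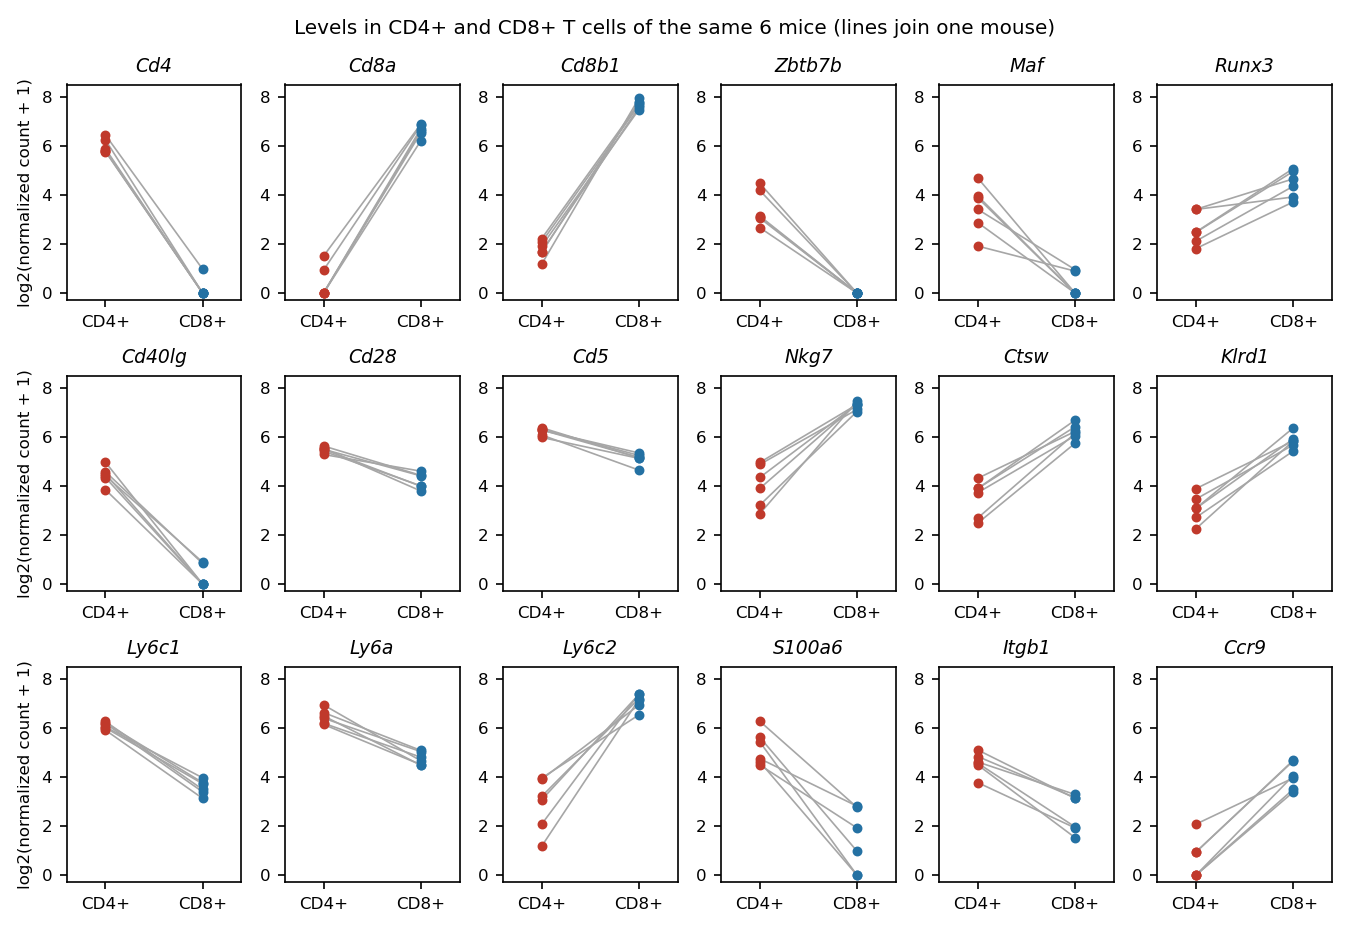
Levels of 18 genes in the CD4+ (red) and CD8+ (blue) T cells of the same 6 EE mice, as log2(normalized count + 1). Points are samples and grey lines join the samples of 1 mouse. The genes shown are all among those that went 1 way in all 6 mice, so every line rises or every line falls in each panel. In the first panel Cd4 has at least 53.5 normalized counts in CD4+ and at most 0.966 in CD8+ samples.

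Markers of other cells were then summed in each sample. The 4 T cell markers (Cd3d, Cd3e, Cd3g, Trac) summed to 405.8 to 508.4 normalized counts in the CD4+ samples and 427.7 to 504.9 in the CD8+ samples, and in limma none of the 4 passed the test between populations (1 had an unadjusted p under 0.05). The sum of 21 B cell markers in the table was higher in the CD4+ samples (301.8 to 428.2) than in the CD8+ samples (75.7 to 161.4). Ms4a1 (CD20), a defining B cell gene, had at most 5.57 in a CD4+ sample and was at 0 in all 6 CD8+ samples. The CD8+ sample of mouse 6 stood apart. Its 5 red cell markers summed to 580.5 against 0 to 3.88 in the other CD8+ samples and 1.84 to 26.7 in the CD4+ samples, and it also had the highest B cell sum of the CD8+ samples (161.4 against at most 110.0). Plasma cell, myeloid, NK cell, gamma delta and platelet markers were low, with sums of at most 93.5 in every sample. Most of this came from the myeloid genes Ctss and Cst3.

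**Figure D2:**
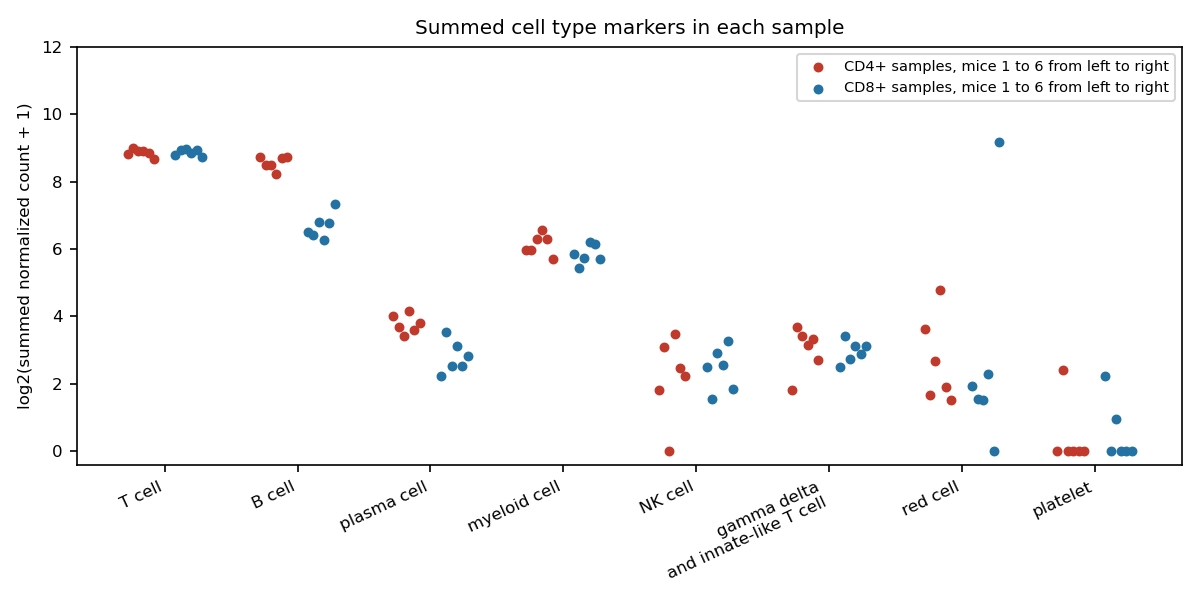
Summed normalized counts of cell type markers in each of the 12 samples, as log2(sum + 1), with mice 1 to 6 from left to right. T cell markers are level across samples, B cell markers are higher in the 6 CD4+ samples, and the CD8+ sample of mouse 6 is alone in its red cell sum of 580.5.

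Of 12994 genes in the table, 7874 with a mean above 2 were tested. With the mouse as a block, 302 genes (3.84%) differed at a limma adjusted p under 0.05. Of these, 150 (1.91%) were higher in CD4+ cells and 152 (1.93%) were lower. The question put to these genes was which of them differed within every pair. One direction in 6 of 6 mice was found for 684 genes (8.69%), 355 higher (4.51%) and 329 lower (4.18%), and 247 genes (3.14%) had it and also passed the test, 121 higher (1.54%) and 126 lower (1.6%). The CD4+ and CD8+ values did not overlap at all for 156 genes (1.98%), and 130 of them (1.65%) passed the test. Left out of the 247 were 55 genes that passed with 5 mice (52 genes) or 4 mice (3 genes) in the common direction. Each mouse followed the common direction at 288 to 298 of the 302 genes. The same 6 mice gave these calls, so such agreement is largely set by the choice of genes. Without mouse 6, whose CD8+ sample stood apart, 254 genes passed, 137 higher and 117 lower.

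The sizes were unlike in the 2 directions. Among the 121 genes higher in CD4+ cells in every mouse, the ratio of means was 8 or more for 24, from 4 to 8 for 21, from 2 to 4 for 30, from 1.5 to 2 for 28 and under 1.5 for 18. Among the 126 lower genes these counts were 20, 13, 34, 20 and 39. The median ratio was 2.84 for the higher and 2.07 for the lower genes. In all, 57 of the higher and 73 of the lower genes had values that did not overlap between populations. Most genes named below were chosen by a small p, which favours such separation. Bulk samples cannot tell fewer cells that express a gene from less RNA of it per cell, which holds for every difference below.

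**Figure D3:**
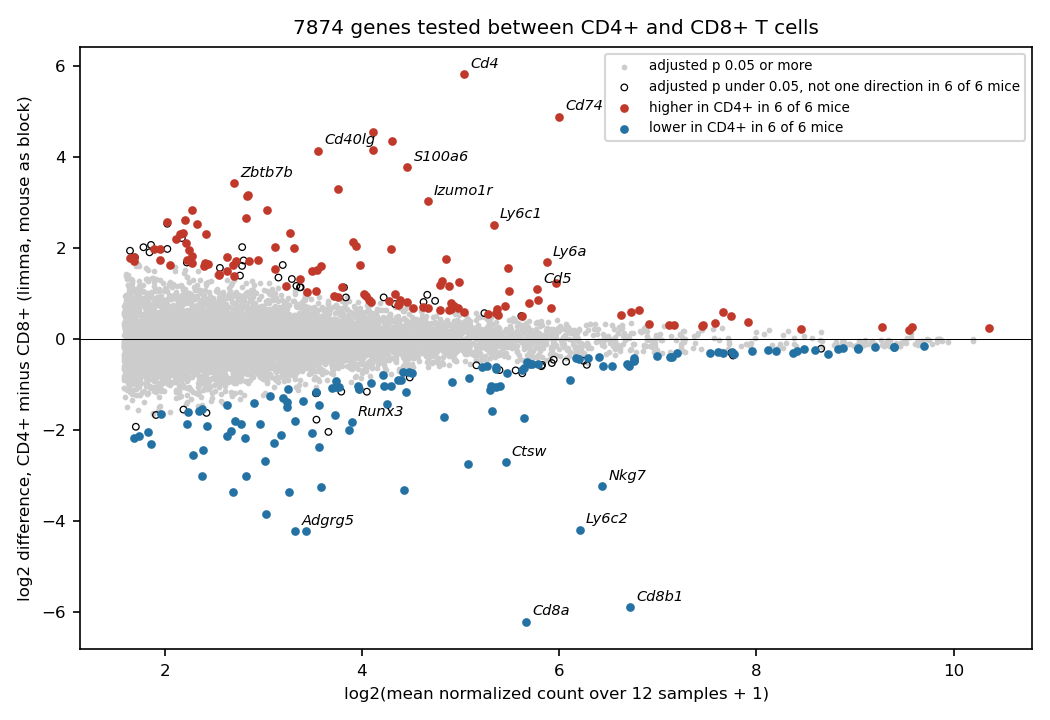
Difference between CD4+ and CD8+ T cells (log2, limma with the mouse as a block) against the mean level over the 12 samples (log2 of the normalized count + 1) for the 7874 genes tested. Red and blue points passed the test and went 1 way in all 6 mice (121 and 126 genes), open points passed without that (55 genes). Large differences occur up to the level of Cd8b1, while highly expressed genes differ little.

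Very few genes were read in every sample of 1 population and in none of the other. In CD4+ cells this was so for 7 of the 12994 genes, of which Zbtb7b was the 1 tested. The other 6, Chn2, Gpm6b, Igsf23, L1cam, Ly6d and Myo5a, were below the limit for testing, with 11 to 22 molecules over the 6 samples. In CD8+ cells it was so for 5 genes, of which 2 (Adgrb2 and RP23.322E20.8) were below that limit and 3 were tested. All but Zbtb7b were named after their values were seen. Adgrg5, an adhesion G protein-coupled receptor, had 118 molecules over the 6 CD8+ samples (17 to 24 in each) and 0 in CD4+ cells. Slc6a19, a transporter of neutral amino acids, had 94 (8 to 23). The unplaced transcript RP23.322E20.9 had 131 (10 to 38). Counted against a floor of 3 molecules over the other group, they were at least 34.0-fold, 27.0-fold and 37.0-fold higher in CD8+ cells.

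Among the lineage transcription factors, 28 of 36 were tested, 3 passed as higher in CD4+ cells and 1 as lower, all in 6 of 6 mice. The median difference of the 28 was 0.20 on the log2 scale, against -0.01 over all genes tested, of which 3.84% passed. Zbtb7b (chr3:89377644-89394776, minus strand), the factor of the CD4 lineage, had 5.34, 7.68 and 21.2 normalized counts in CD4+ cells and 0 in all CD8+ samples. With 65 molecules in CD4+ cells it was at least 24.3-fold higher there. Runx3 (chr4:135120652-135177990, plus strand), the factor of the CD8 lineage, was detected in both populations. It had 2.52, 4.59 and 9.65 in CD4+ cells against 12.1, 21.8 and 32.6 in CD8+ cells, a log2 difference of -1.82 ± 0.29 (SE, limma adjusted p = 7.18e-06) without overlap. Runx3 was thus detected in all 6 CD4+ samples, whereas Zbtb7b was not detected in any CD8+ sample, where a count of 0 allows up to 3 molecules over the group.

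Maf (chr8:115682942-115707794), known from helper and follicular helper T cells, had 2.77, 11.7 and 24.7 in CD4+ cells and at most 0.940 in CD8+ cells. Its ratio was 39.8 with a counting interval of 10.6 to 335.1. Rora, a nuclear receptor used by helper and innate lymphoid cells, had 4.61, 5.89 and 8.581 against 0, 0 and 3.76 (log2 difference 2.12 ± 0.49, limma adjusted p = 0.00354). Neither gene overlapped between populations. Other factors of T cell fate did not pass. Eomes was lower in CD4+ cells in 6 of 6 mice and Runx1 higher in 6 of 6, with limma adjusted p of 0.0543 and 0.0676. The log2 difference was 0.65 ± 0.39 for Gata3, 0.55 ± 0.27 for Tox and -0.84 ± 0.26 for Ikzf3 (Aiolos), with limma adjusted p of 0.476, 0.348 and 0.0524. Tcf7 and Lef1, factors of naive T cells, had log2 differences of -0.14 ± 0.14 and -0.06 ± 0.12, and their values overlapped. Without mouse 6, 4 factors passed as higher and 3 as lower. In DESeq2, and in limma without the limit on the mean, 2 passed as higher and 1 as lower. At a mean above 10, 15 were tested, none was higher and 2 were lower. Rora passed in 11 of the 13 other settings that tested it.

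The promoters of genes that separated the populations are shown with the letters TGTGGT, a core that RUNX factors are known to bind, and its reverse complement ACCACA in capitals. Each window holds the 250 bases before the start that RefSeq gives for the gene (GRCm38.p6), read 5′ to 3′ on the gene's strand. Cd8a is at chr6:71373177-71373426 (plus), Nkg7 at chr7:43436888-43437137 (plus), Zbtb7b at chr3:89393379-89393628 (minus) and Runx3 at chr4:135120395-135120644 (plus).
Cd8a: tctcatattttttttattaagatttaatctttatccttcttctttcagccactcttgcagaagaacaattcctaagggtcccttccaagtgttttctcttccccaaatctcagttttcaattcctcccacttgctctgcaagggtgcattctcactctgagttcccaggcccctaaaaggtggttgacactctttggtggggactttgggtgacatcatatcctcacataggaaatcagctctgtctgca
Nkg7: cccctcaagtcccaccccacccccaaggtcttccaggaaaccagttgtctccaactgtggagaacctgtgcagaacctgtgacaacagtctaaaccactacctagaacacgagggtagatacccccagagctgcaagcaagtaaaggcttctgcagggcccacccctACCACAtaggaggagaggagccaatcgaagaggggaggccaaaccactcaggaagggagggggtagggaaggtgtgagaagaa
Zbtb7b: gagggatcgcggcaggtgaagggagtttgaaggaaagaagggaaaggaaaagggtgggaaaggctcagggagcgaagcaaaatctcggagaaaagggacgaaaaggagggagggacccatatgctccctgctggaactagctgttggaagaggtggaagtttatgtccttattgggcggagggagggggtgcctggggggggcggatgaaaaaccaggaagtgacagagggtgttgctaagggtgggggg
Runx3: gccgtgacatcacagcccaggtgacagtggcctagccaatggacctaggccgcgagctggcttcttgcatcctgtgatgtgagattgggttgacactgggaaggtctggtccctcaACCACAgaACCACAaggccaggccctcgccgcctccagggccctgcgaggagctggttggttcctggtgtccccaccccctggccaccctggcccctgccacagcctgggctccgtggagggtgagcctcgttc
The window of Nkg7 held 1 match and that of Runx3 held 2, while those of Cd8a and Zbtb7b held none. Over the 300-base windows that reach 50 bases past the start, TGTGGT was found on either strand in 701 of 5694 promoters of tested genes (12.3%), in 18 of 83 promoters of genes lower in CD4+ cells (21.7%) and in 10 of 109 of genes higher (9.17%). For Gata3 and its relatives the letters AGATAA were used, and they were found in 6.11% of all, 10 of the 83 and 9 of the 109, and CTTTGA, a TCF/LEF motif, in 12%, 14 and 18. These are counts of short words and were not tested.

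Cytotoxic and NK receptor genes were the list that leaned most to the CD8+ side. Of 38 genes, 13 were tested, and 8 of them were lower in CD4+ cells in 6 of 6 mice, none higher (1.93% of all genes tested were lower). The median log2 difference of the 13 was -1.87. Over all 26 members in the table, without the limit on the mean, it was -0.48, and 6 were called lower. Nkg7 (chr7:43437073-43438249), a protein of cytotoxic granules, had 6.30, 16.6 and 30.1 normalized counts in CD4+ cells against 129.7, 158.8 and 173.0 in CD8+ cells. The populations were thus far apart, 8.66-fold, yet the gene was detected in every CD4+ sample. Ctsw, a cathepsin of cytotoxic cells (chr19:5465043-5468507), had 4.61, 13.1 and 18.9 against 52.4, 71.5 and 101.5 (6.46-fold). Klrd1, which encodes the NK receptor subunit CD94 (chr6:129591782-129598775), had 3.78, 7.50 and 13.8 against 41.7, 55.8 and 81.2 (7.12-fold). Cd7, a surface receptor of T and NK cells, had 3.66, 12.4 and 23.5 against 36.9, 40.6 and 45.4. The log2 differences were -3.24 ± 0.17, -2.70 ± 0.19, -2.75 ± 0.22 and -1.70 ± 0.22. None of these 4 genes, which had the smallest p of the list, overlapped (1.98% of all genes tested did not).

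The other 4 were Itgae, Cd226, Cst7 and Prf1. Itgae, the integrin chain CD103 that holds T cells at epithelium, had 0 to 1.26 in CD4+ cells (median 0.457) and 5.80 to 20.4 in CD8+ cells (median 9.84). Prf1, the pore-forming perforin, was low, with 0, 1.47 and 4.28 against 2.91, 10.7 and 15.5, and its values overlapped. The granzymes Gzma, Gzmb, Gzmk and Gzmm stayed below the limit for testing, with at most 4.85 normalized counts in any sample. Of the 13 members below that limit, 7 had the higher mean in CD4+ cells and 6 in CD8+ cells. On the CD4+ side were Fasl (15 molecules against 4), Tyrobp (15 against 2), Klrg1 (11 against 2) and Gzmk (7 against 1), while Cd160 (1 against 22) and Crtam (1 against 20) were lower in CD4+ cells in 6 of 6 mice. Ccl5, a chemokine of effector cells, varied more between mice than between populations. It ranged from 3.21 to 171.3 in CD4+ cells and from 13.2 to 152.0 in CD8+ cells (log2 difference -0.52 ± 0.24, limma adjusted p = 0.286).

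**Figure D4:**
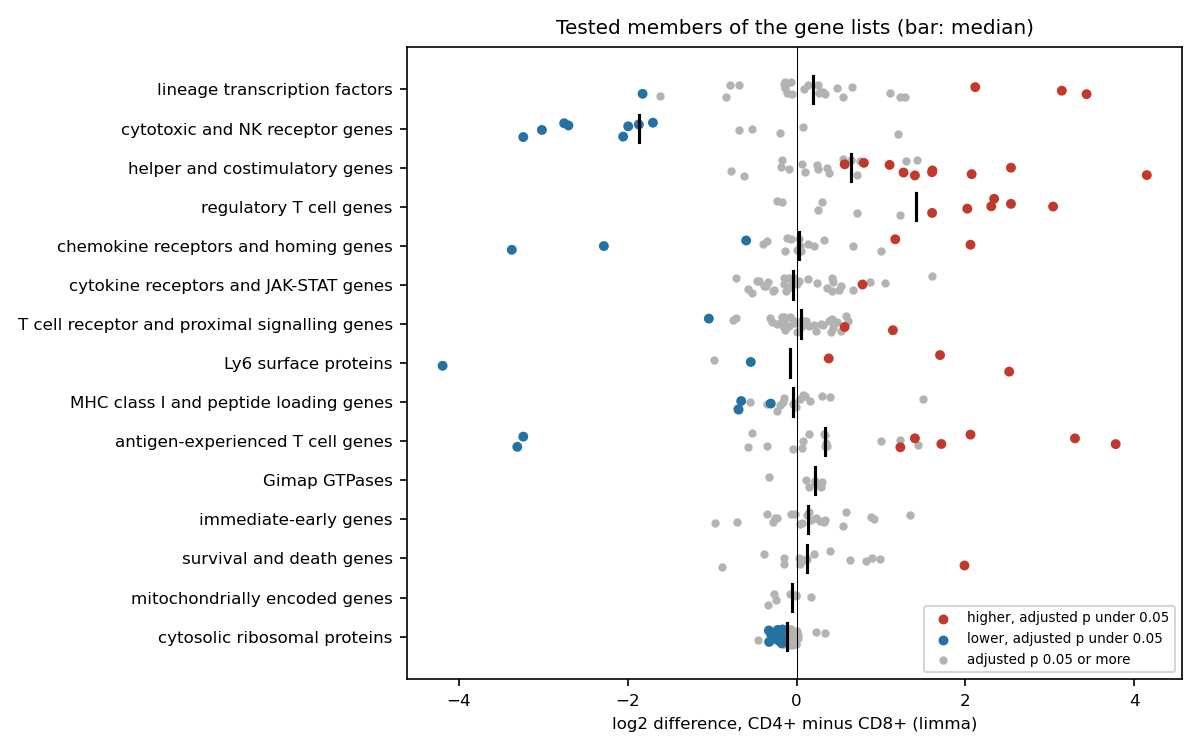
Log2 difference between CD4+ and CD8+ T cells for each tested member of 15 gene lists. Red (higher in CD4+) and blue (lower) points passed at a limma adjusted p under 0.05, grey points did not, and the black bar is the median of the tested members. Cytotoxic genes lie to the left (median -1.87), regulatory T cell genes to the right (median 1.42), Ly6 genes (listed with Thy1) on both sides, and ribosomal genes in a narrow band just left of 0 (median -0.11).

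Helper and costimulatory genes leaned the other way. Of 27 tested, 10 were higher in CD4+ cells, 9 of them in 6 of 6 mice, and none was lower (1.91% of all genes tested were higher). The median was 0.65. Cd40lg (chrX:57212143-57224042), the ligand with which helper cells license B cells and dendritic cells, had 13.4, 20.9 and 30.2 in CD4+ cells and at most 0.859 in CD8+ cells. The ratio of 77.3 had a counting interval of 20.9 to 645.2. Cd28, the main costimulatory receptor, was shared but higher, with 37.9, 44.0 and 48.5 against 12.9, 17.7 and 23.3 (2.44-fold). Cd5, an inhibitory receptor that follows T cell receptor signal strength, had 62.0, 76.5 and 81.9 against 24.0, 34.6 and 39.6 (2.17-fold). Its neighbour Cd6 had 61.3, 65.9 and 66.8 against 32.6, 36.3 and 44.2 (1.75-fold). None of these 4 genes, which had the smallest p of the list, overlapped (1.98% of all genes tested did not).

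The remaining members that passed were Cd247, Cd44, Tnfrsf4, Cd9, Tigit and Ctla4. Tigit, an inhibitory receptor, was higher in 5 of 6 mice and at 0 in both samples of the other. Icos and Btla were higher in CD4+ cells in 6 of 6 mice without passing, with limma adjusted p of 0.149 and 0.0958. The count was 6 in place of 10 without mouse 2, in DESeq2 and without the limit on the mean.

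Regulatory T cell genes, some of which the helper list also holds (Ctla4, Tnfrsf4), were higher in CD4+ cells at 6 of 12 tested, 5 of them in 6 of 6 mice, and none was lower (1.91% of all genes tested were higher). The median was 1.42. Over all 20 members in the table, without the limit on the mean, it was 0.93, and 4 were called higher. At a mean above 10, 3 were tested and 1 was called higher. Izumo1r (chr9:14885814-14903949), the folate receptor 4 of regulatory and other CD4+ cells, had 31.0, 39.5 and 65.7 in CD4+ cells against 0, 5.58 and 9.45 in CD8+ cells (7.91-fold). Ctla4, the inhibitory receptor that competes with CD28, had 3.21, 8.14 and 10.7 against 0, 0.429 and 0.971. Nrp1, a surface protein of thymus-derived regulatory T cells, had 2.52, 6.41 and 11.1 against 0, 0.429 and 0.971. Capg, an actin-capping protein, had 10.7, 13.6 and 22.9 against 0, 2.85 and 3.44. Foxp3, the defining factor, was below the limit for testing, with 14 molecules in CD4+ cells (0 to 3.78 normalized counts) and 1 in CD8+ cells. Lrrc32 (GARP), which passed in 5 mice, had 30 molecules in CD4+ cells and none in CD8+ cells.

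The Ly6 family, small membrane-anchored proteins of which many are encoded side by side on chromosome 15, was split within itself. Of 5 members tested, 3 were higher and 1 lower, all in 6 of 6 mice (3.84% of all genes tested passed). The median was 0.38. Ly6c1 (chr15:75044018-75048830) had 59.0, 67.9 and 75.6 in CD4+ cells against 7.73, 11.2 and 14.6 in CD8+ cells (6.07-fold). Ly6c2 (chr15:75108158-75111970), its close neighbour and near copy, went the opposite way, with 1.26, 7.80 and 14.5 against 91.3, 142.6 and 165.5 (17.0-fold). The log2 differences were 2.52 ± 0.19 and -4.19 ± 0.23. Reads that fit both copies could be shared between them by the counting, so each level is uncertain, although such sharing was not tested. Ly6a, the stem cell antigen Sca-1, had 69.5, 85.8 and 121.4 against 21.3, 25.6 and 32.9 (3.35-fold). Ly6e was high in both and 1.31-fold higher in CD4+ cells (238.1, 278.2 and 301.7 against 193.7, 209.2 and 228.2). None of these 4 genes, the members that passed, overlapped (1.98% of all genes tested did not). Thy1, the pan-T cell antigen, is an immunoglobulin-like protein anchored in the same way and encoded on chromosome 9. It was listed with the family and was lower, with 34.7 to 49.3 against 58.6 to 64.1, which makes 3 higher and 2 lower of 6. Without mouse 5 and in DESeq2 it did not pass.

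**Figure D5:**
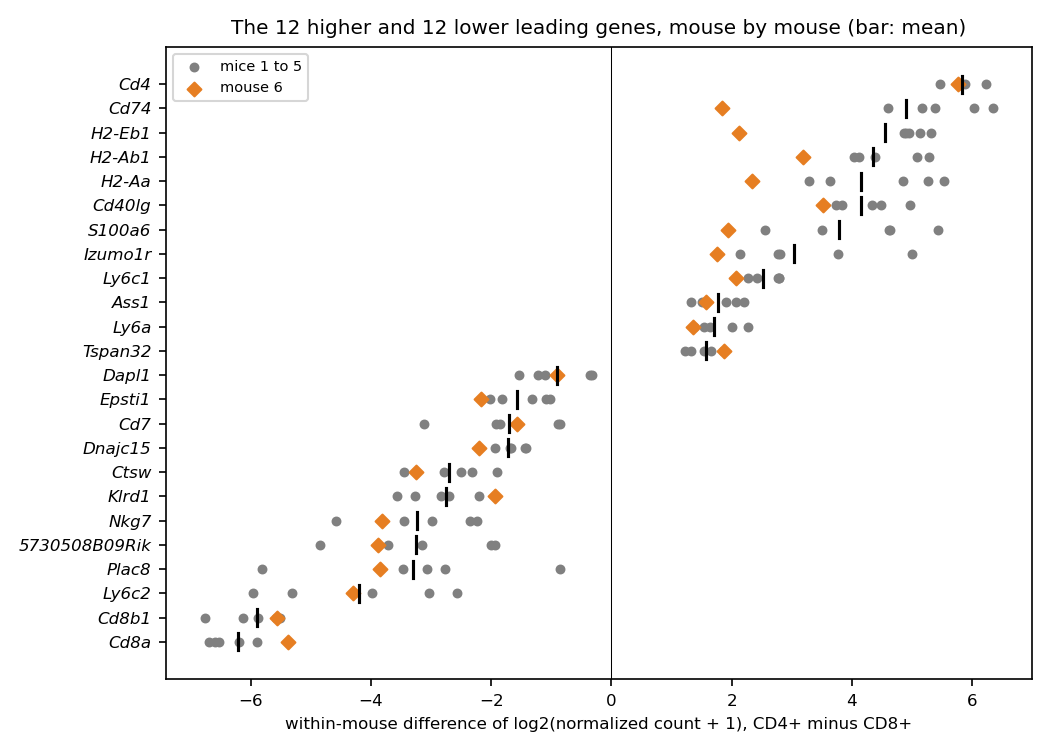
Within-mouse difference, CD4+ minus CD8+, of log2(normalized count + 1) for the 12 genes with the smallest p among those higher and the 12 among those lower in CD4+ cells in all 6 mice, at a mean above 10. Grey points are mice 1 to 5, orange diamonds mouse 6 and bars the mean. No point crosses 0, since the genes were chosen for 1 direction in all 6 mice. Mouse 6 gives the smallest difference for Cd74 and the class II genes (1.84 for Cd74 against up to 6.34), and Plac8 spreads widely among the mice.

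Homing and chemokine receptor genes also went both ways, 2 higher and 3 lower of 19 tested, all in 6 of 6 mice. Of all genes tested, 3.84% passed. The median of the 19 was 0.03. Ccr9, the receptor that guides T cells to the gut, had 0, 0.457 and 3.22 in CD4+ cells against 9.40, 15.0 and 24.5 in CD8+ cells (19.4-fold). Cxcr6, a receptor of tissue-resident cells, had 0.914, 2.14 and 2.52 against 9.66, 13.6 and 15.8 (6.77-fold). On the CD4+ side were Itgb1, an integrin chain of experienced T cells (12.6, 23.0 and 33.2 against 1.88, 5.31 and 8.74), and Gpr183 (EBI2), which positions cells in the spleen (32.2, 38.9 and 50.1 against 13.5, 17.3 and 19.8). The values of these 4, the members with the smallest p, were separate (1.98% of all genes tested were). Ccr7, the lymph node homing receptor, had nearly the same level, with 57.9, 67.5 and 74.3 against 55.0, 66.9 and 87.0 (log2 difference 0.00 ± 0.13).

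Of 23 genes typical of antigen-experienced T cells, 6 were higher in CD4+ cells and 2 lower, all in 6 of 6 mice. The median was 0.34. Of all genes tested, 1.91% were higher and 1.93% lower. Without the limit on the mean, 2 were higher and 2 lower. S100a6 (chr3:90612882-90624181) and S100a4 (chr3:90603771-90606045), calcium-binding proteins encoded side by side, had the largest differences among the higher members. S100a6 had 21.4, 33.9 and 76.2 in CD4+ cells against 0, 1.88 and 6.01 in CD8+ cells (15.2-fold). S100a4 was also higher in 6 of 6 mice (16.9-fold), but its level in CD4+ cells varied more, from 1.26 to 50.4 with a median of 22.0, and overlapped the 0 to 6.01 of CD8+ cells. Lgals1 (galectin-1) had 36.9, 92.8 and 127.0 against 25.4, 33.2 and 52.1. Itgb1, Anxa2 and Cd44, the hyaluronan receptor, were the other members higher. The lower members were Nkg7 and Plac8. Plac8 (chr5:100553725-100572245) had 0, 2.90 and 11.3 against 21.4, 32.3 and 55.5 (9.42-fold). The highest CD8+ value of both S100 genes, 6.01, was that of mouse 6, the sample with the high red cell sum. Without that mouse the log2 difference of S100a6 went from 3.78 to 4.149 and that of S100a4 from 3.30 to 3.88.

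MHC class II genes made the next group, and they were also members of the B cell marker list. Cd74, the invariant chain (chr18:60803848-60812652), had 80.2, 122.1 and 157.4 in CD4+ cells against 0, 2.34 and 34.4 in CD8+ cells (16.2-fold, log2 difference 4.89 ± 0.28). H2-Ab1 (chr17:34257689-34269419) had 31.0, 34.9 and 47.0 against 0, 0.865 and 4.294. H2-Eb1 (chr17:34305867-34316674) had 28.3, 29.8 and 39.0 against 0, 0 and 6.01. H2-Aa (chr17:34282744-34287823) had 23.6, 27.8 and 45.3 against 0, 0.483 and 4.294. None of the 4 overlapped (1.98% of all genes tested did not), and the highest CD8+ value of each was that of mouse 6. Without mouse 6, the log2 differences were 5.51 for Cd74, 4.58 for H2-Ab1, 5.04 for H2-Eb1 and 4.52 for H2-Aa, larger than the 4.89, 4.35, 4.55 and 4.155 of all 6 mice. Cd79a and the immunoglobulin genes Iglc2 and Igkc moved with them. Ighm and Cd79b did not, with log2 differences of 0.14 ± 0.16 and 0.51 ± 0.32. Cd79a, a chain of the B cell receptor, had 3.34, 8.03 and 28.3 against 0, 0 and 5.15, Iglc2 had 2.15 to 15.5 against 0 to 0.971, and Igkc had 2.23 to 6.41 against 0 to 0.940.

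In all, 10 of 21 B cell markers in the table were tested, and 7 passed as higher in CD4+ cells in 6 of 6 mice. Of all genes tested, 1.54% did so. None was lower, and the median of the 10 was 2.65. The 7 include Cd74, H2-Ab1, H2-Eb1 and H2-Aa. Igkc had a mean of 2.14 over the 12 samples, just above the limit for testing, and of 0.43 in CD8+ cells. Of the 7, all but Cd74 had a mean under 2 in CD8+ cells. They reached the limit for testing only through the CD4+ samples, so the count and the median lean to that side by the choice of genes. Cd79b, Ighm and Cd37 did not pass. Fcmr, a receptor for IgM, was higher in 5 mice (0, 6.98 and 9.62 against 0 in all CD8+ samples). The sort took CD3+ cells, and the part of B cell RNA in these samples and in the class II difference was not tested.

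T cell receptor and proximal signalling genes gave 2 higher and 1 lower of 38 tested (7.89%, against 3.84% of all genes tested), with a median of 0.06. In DESeq2, and in limma without the limit on the mean, none passed. Cd247, the zeta chain, had 35.6, 45.3 and 65.4 in CD4+ cells against 27.2, 32.1 and 37.2, higher in 6 of 6 mice. Trat1, an adaptor of the receptor, was higher in 5 of 6 mice (median 14.0 against 5.15). Sla2, an adaptor that dampens receptor signals, was lower in 6 of 6 (median 8.44 against 20.0). All 3 overlapped between populations. The counts higher and lower were 2 and 0 without mouse 1, 0 and 1 without mouse 2, 1 and 1 without mouse 3, and 1 and 0 without mouse 5. Cd3d, Cd3g and Lck, the kinase bound by both coreceptors, had log2 differences of -0.01 ± 0.08, -0.02 ± 0.09 and -0.15 ± 0.10. Lck was lower in CD4+ cells in 6 of 6 mice but did not pass (limma adjusted p = 0.542).

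Variable genes of the T cell receptor encode the part that meets the peptide and the MHC molecule. Of 54 Trav and Trbv genes tested, 7 were higher and 4 lower in CD4+ cells, and 5 of the 11 had 1 direction in 6 of 6 mice. These were 20.4% and 9.26% of the 54, against 3.84% and 3.14% of all genes tested. Trbv31 (chr6:41557691-41558452, a TR V gene) had 2.14, 21.3 and 46.6 in CD4+ cells against 0, 3.74 and 13.0. Trbv3 had 23.6, 35.8 and 68.0 against 4.294, 15.2 and 28.8. Trbv12-1 had 0, 3.99 and 5.57 against 7.91, 12.4 and 29.0 without overlap. Some segments that passed in 1 direction lay near each other. Trbv2, Trbv3 and Trbv5, within 15 kb, were higher, whereas Trbv12-1, Trbv12-2, Trbv14 and Trbv17, within 49.5 kb, were lower. Of these, only Trbv3 and Trbv12-1 had 1 direction in 6 of 6 mice. Segments that did not pass were left out of this grouping, which was not tested.

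Trbv14 and Trbv17 passed although only 4 of 6 mice went the common way. Trbv14 had 0, 1.93 and 20.4 in CD4+ cells against 8.37, 11.9 and 41.7 in CD8+ cells, and 2 mice were higher in CD4+ cells. Near-identical segments can share reads, so single levels are uncertain.

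MHC class I and peptide loading genes were nearly level, with a median of -0.04. Of 21 tested, 3 were lower and none higher (1.93% of all genes tested were lower). None of the 3 passed in DESeq2 or without the limit on the mean. H2-Q7 had 113.3, 130.3 and 151.2 in CD4+ cells against 154.4, 160.1 and 168.9 in CD8+ cells, and its call was lost without mouse 2, 3, 4 or 5. Psmb10, a subunit of the immunoproteasome, had 25.7, 30.1 and 36.6 against 38.6, 47.8 and 67.2. H2-Q6 was lower in 5 of 6 mice, and it shares sequence with H2-Q7. The classical heavy chains were close, with log2 differences of 0.08 ± 0.06 for H2-K1 and 0.16 ± 0.06 for H2-D1, and -0.02 ± 0.05 for B2m.

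Ribosomal protein genes, the most abundant group, differed by little and in 1 direction. The list, drawn up by name, held 88 tested genes, of which 3 (Rpl37rt, Rps3a2 and Rps3a3) are annotated as pseudogenes. Of the other 85, 14 were lower in CD4+ cells (1.93% of all genes tested were), all in 6 of 6 mice, none was higher, and 78 had a log2 difference below 0 (median -0.11). With all samples scaled to the same total, 14 passed, and the median of the 88 went from -0.11 to -0.09. The ratio of means of the 14 was 1.11 to 1.24. Rpl23a had 248.1, 275.4 and 367.7 in CD4+ cells against 309.2, 366.1 and 429.8, and Rps15a had 719.6, 763.9 and 872.7 against 830.4, 879.0 and 916.3. The 88 genes took 25.9% to 30.5% of the normalized counts in CD4+ samples and 27.4% to 30.3% in CD8+ samples, and these ranges overlap. The count of 14 rested on the set of mice. It was 26 without mouse 1, 11 without mouse 3 and 4 without mouse 2, 4, 5 or 6, and it was 2 without the block, 10 in edgeR, 2 in DESeq2 and 0 without the limit on the mean.

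Pseudogenes went the same way. Of the 152 genes lower in CD4+ cells, 26 (17.1%) were annotated as pseudogenes, against none of the 150 higher genes and 434 of 7874 tested (5.51%). They included Rpl23a-ps3, Rps18-ps3, Rpl3-ps2, Rpl36-ps2, Rps15a-ps7, Rpl17-ps9, Rpl9-ps4 and Rps3a3. Reads of a processed pseudogene and of its parent can be confused by the alignment, so these levels are uncertain. Rps3a3 (chr13:108670603-108671397, a processed pseudogene) had 162.0, 184.6 and 226.6 against 205.2, 250.1 and 273.5. The ribosomal RNAs of the mitochondrion, mt-Rnr1 and mt-Rnr2, were named after their values were seen. They were higher in CD4+ cells in 6 of 6 mice with log2 differences of 0.28 ± 0.05 and 0.24 ± 0.04, while none of the 8 tested protein-coding mitochondrial genes passed in limma, edgeR or DESeq2 (median -0.05, with 3 at an unadjusted p under 0.05 in limma). With all samples scaled to the same total, 1 of the 8 passed as higher.

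Several of the most separate genes fell in no list. Among those higher in CD4+ cells, Tspan32, a tetraspanin of blood cells (chr7:143005046-143019644), had 52.3, 65.7 and 81.2 against 16.0, 21.4 and 26.1 (3.09-fold). Ass1, the argininosuccinate synthase that makes arginine from citrulline (chr2:31470207-31520672), had 35.4, 42.2 and 52.3 against 8.46, 12.6 and 15.5 (3.56-fold). Among those lower, Dnajc15, a mitochondrial cochaperone (chr14:77820681-77875125), had 17.5, 22.9 and 26.8 against 68.8, 75.2 and 84.2 (3.38-fold). Its neighbour Epsti1, an interferon-inducible gene (chr14:77904239-78002657), had 12.0, 21.0 and 25.7 against 53.1, 57.4 and 65.6 (2.94-fold).

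5730508B09Rik, named Fam241a in RefSeq (chr3:127869688-127896323), had 0, 1.61 and 3.34 against 13.0, 20.9 and 27.7 (13.6-fold). Dapl1 (chr2:59484653-59505020) had 29.0, 47.4 and 64.2 against 68.9, 83.8 and 112.8 (1.87-fold). The values of these 6 genes were separate between populations, with limma adjusted p from 1e-13 for Dnajc15 to 2.07e-06 for Dapl1.

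Some of the genes that passed were neighbours. Of 293 with a position, 39 (13.3%) lay in 17 runs of genes that passed in 1 direction with starts within 100 kb of the next, and 254 did not. Besides Cd8b1 with Cd8a, Cd5 with Cd6, S100a4 with S100a6 and Dnajc15 with Epsti1, they included Ly6e, Ly6a and Ly6c1 over 93.8 kb, H2-Ab1, H2-Aa and H2-Eb1 over 48.2 kb, Cd4 with Ptms (31.9 kb), and Slc6a19 with Slc12a7 (28.2 kb). Families of like sequence share these stretches, and no test of the runs was made.

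Other lists held few or no calls (3.84% of all genes tested passed). None of 8 Gimap GTPases passed in limma, edgeR or DESeq2, 1 had an unadjusted p under 0.05 in limma, 7 were above 0 and the median was 0.22. None of 22 immediate-early genes, which mark recent activation or handling, passed with these tools, and 2 had an unadjusted p under 0.05 in limma (median 0.13). Of 32 cytokine receptor and JAK-STAT genes only Il6ra passed (16.0, 24.0 and 32.9 against 9.45, 14.1 and 16.9, higher in 5 of 6 mice), and without mouse 1, 2 or 5, in DESeq2 or without the limit on the mean none did. Il7r, the receptor of the survival cytokine IL-7, had a log2 difference of -0.15 ± 0.11. Of 15 survival and death genes only Bcl2a1d passed (median 4.37 against 0), and without mouse 1 or mouse 4, in DESeq2 or without the limit on the mean none did.

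The limit of the test lay at small or noisy differences. Rasgrp2 and Otub1 were just inside, with limma adjusted p of 0.0497 and 0.04996, and Ostf1 and Frrs1 just outside, at 0.0508 each. Rasgrp2 had 33.4, 41.0 and 63.6 in CD4+ cells against 21.4, 28.7 and 40.3, and Ostf1 had 34.0, 50.2 and 55.3 against 49.5, 68.6 and 77.2. Gm10335, a processed pseudogene, had the smallest p of the genes that passed with 5 mice (log2 difference -0.75 ± 0.16).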

How the data were processed

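RNA of sorted spleen T cells was made into cDNA tagged with UMIs and sequenced on an Ion Proton instrument. According to the study's methods, the authors trimmed reads with cutadapt, aligned them with STAR (2.4.0a in the submitters' processing notes) to mm10, counted unique molecules per gene with Drop-seq tools on an Ensembl GRCm38 gene model, removed low-abundance genes and normalized with DESeq2. The deposited signal is thus the molecule count divided by a size factor, for 12994 genes. The methods also exclude CD4+ samples that express the CD8 genes, without saying whether spleen samples were judged in this way, and all 6 CD4+ samples here held some Cd8b1. The strand setting of the counting is not given in the sources used here, so overlapping and antisense genes cannot be told apart.

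Of the 21 columns, 12 were used and the 9 of standard housing were not. Every column maps to 1 labelled sample. Each value was a whole multiple of the column's smallest value (100% within 0.01), which gave back whole molecules. Of the names, 12467 matched GENCODE M21 after altered characters were restored, and 527 did not and stayed as listed. No pair of samples of 1 population was alike within sampling noise (30 pairs, largest chi-square p = 2.25e-71).

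Genes with a mean above 2 over the 12 samples were tested with limma 3.58.1 (trend, mouse as block) on log2(value + 1), with Benjamini-Hochberg adjustment at 0.05. Fold changes on this scale understate those of low genes, so ratios of means are given as well. SE are limma's. The animal number in the labels pairs the samples, since both came from the same mouse. Deviations from the group means correlated at -0.0186 to 0.0422 within mice (6 pairs, median 0.0189) and at -0.0448 to 0.0325 between mice (30 pairs, median -0.0015). Coreceptor levels were compared by an exact two-sided sign-flip test. A gene absent from a group was set against 3 molecules over that group. Intervals of ratios on up to 3 molecules cover counting error only. The scripts were tested on simulated data.

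The members and gene lists were chosen with earlier results of these data known. Named were the coreceptors, the 12 genes of each direction ranked first by p among those that passed in 6 of 6 mice at a mean above 10, the first 4 passing members of each list by p (all factors), the 3 most variable and 3 not uniform passing genes, 2 genes on either side of the limit, and the 2 highest markers of other cell types. Others were named after their values were seen. Some genes are not reported here. A serial number that the labels give as a number of cells was not used. Alternatives were a pseudocount of 0.5, no filter, a mean above 10, equal totals, sample weights, no block, edgeR 4.0.16, DESeq2 1.42.0 on whole molecules, and leaving out each mouse. Python 3.11.15, R 4.3.3 and RefSeq promoters (GRCm38.p6) were used.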

Additional observations from a re-analysis of the deposited data

Results flagged for a closer look

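In a group of 6, a sample stood apart by Dixon's criterion at 21 of 150 groups of a gene and a population, where chance gives about 1 in 20. The CD8+ sample of mouse 6 held 8 of them. Hba-a1 had 261.1 normalized counts there and Hbb-bs 133.1, against at most 1.86 and 3.88 in the other CD8+ samples. The same sample was highest for Cd74 (34.4), H2-Ab1 (4.294), H2-Eb1 (6.01), Bcl2a1d (4.294) and Mzb1 (2.58), and lowest for Cd5 (24.0 against at least 33.8).

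Other samples stood apart at single genes. CD8+ cells of mouse 4 had 41.7 for Trbv14 against at most 16.3, those of mouse 3 had 44.2 for Cd6 against at most 36.7, and those of mouse 2 had 38.7 for Gm10335 against at least 61.8. CD4+ cells of mouse 1 had 34.0 for Ostf1 against at least 48.5.

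The remaining values rest on 4 molecules or fewer. In CD8+ cells these were Cd4 in mouse 2 (0.966), Tyrobp in mouse 5 (1.58), Trdc in mouse 2 (3.87), Pf4 in mouse 1 (3.72) and Itga2b in mouse 3 (0.940). In CD4+ cells of mouse 2 they were Ccr9 (3.22), Trdc (1.07), Pf4 (2.15) and Itga2b (2.15).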

How the results depend on the processing

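Of the 302 calls in all, 260 stood when the pseudocount was 0.5 and the total was 242 for genes over a mean of 10, 307 with equal totals, 303 with sample weights and 313 by edgeR, of which 280 were shared. Without a filter, 12994 genes were tested and 72 were called (37 higher, 35 lower, 72 in 6 of 6 mice), with 29 calls in the lists in place of 63 and 36 of the named genes in place of 59. DESeq2 called 105 (54 higher, 51 lower, 102 in 6 of 6 mice), with 34 calls in the lists, and the cause was not tested. All of its 105 were among the 302, and 153 genes had no adjusted p. Without the replicate block, 227 were called, all among the 302. Without 1 mouse, 208 to 265 were called, 100 to 137 higher and 103 to 145 lower, 189 to 230 in all 5 mice left, with 44 to 73 calls in the lists and 52 to 55 of the named genes. No setting shifted the median of all genes by over 0.1. With 5 mice the sign-flip test cannot go below 0.0625, and the within-mouse difference was 59.1 to 65.4 for Cd4, -103.4 to -94.9 for Cd8a and -209.7 to -196.2 for Cd8b1.

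Of 978 recomputed differences of 71 genes, 877 held direction and call, 79 lost and 9 gained a call. Without 1 mouse or more, calls were lost by Il6ra, Sla2, Trat1, Cd247, H2-Q7, Bcl2a1d, Rps3a3, Trbv17, Rasgrp2 and Otub1. Of 210 list counts, 34 moved by over 1.5 times. A change of sign occurred 13 times, in genes not called. Cd3d went to 0.0089 with equal totals, and without 1 mouse it ranged from -0.0759 to 0.0475. Cd3g ranged from -0.0696 to 0.0128 and Cst3 from -0.113 to 0.057 without 1 mouse, and Cst3 went to -0.0067 with weights, -0.0116 in edgeR and -0.0094 in DESeq2. Hba-a1 ranged from -0.9228 to 1.404 without 1 mouse, highest without mouse 6, and went to 1.53 in DESeq2, and Hbb-bs to 0.91 in DESeq2.

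Depth limits low genes. A count of 0 over a group allows up to 3 molecules, and Foxp3 and the granzymes were below the limit for testing.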
